A study of Mus musculus with 6 samples.

Results

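The chromatin of mouse nephron progenitor cells was examined at 10 genes of the signalling between the kidney mesenchyme and the ureteric bud: the ligand Gdnf with its receptor genes Ret, Gfra1 and Gfra2, the ligand Gdf11, the ligands Slit2 and Slit3, their receptors Robo1 and Robo2, and Srgap1. The regions described are those accessible stretches whose midpoint lay in the RefSeq body of a gene or within 50 kb of it, 112 of the 43523 distinct regions in all. The libraries came from CD1 mice at embryonic day E14.5 (3 libraries) and on the day of birth (P0, 3 libraries), each from the kidneys of 1 litter, and the labels name no genetic change or drug for either group. Progenitors were captured on magnetic beads through Itga8, an integrin on their surface, so that other cells carried along would be counted with them. ATAC-seq was run on 50000 cells per library: the transposase Tn5 cuts open DNA, and the count in a region measures how accessible it was.

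Gdnf is secreted by the progenitors and the mesenchyme around them. It binds Gfra1 and activates the receptor tyrosine kinase Ret on the ureteric bud, which grows and branches in response. Slit proteins are secreted ligands of Robo receptors, and loss of Slit2 or Robo2 lets the Gdnf domain extend too far forward, so that extra buds form. Gdf11, a ligand of the transforming growth factor family, is needed for the outgrowth of the bud. Srgap1 is a GTPase-activating protein that acts below Robo receptors.

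Accessibility at the Slit and Robo genes changed in 9 regions between the stages, 7 higher and 2 lower at P0, and each of the 9 lay away from the start of its gene. No region passed the test at Gdnf, Gfra1, Gfra2, Ret and Gdf11 (19 regions together) or at Srgap1 (6 regions). With so few regions, no call cannot be told from the share over all regions. Promoters were 47.4% of these 19 and 12.9% of the 93 regions at the Slit, Robo and Srgap1 genes. Of all promoters, 0.851% passed. The 9 were 8.04% of the 112 regions, against 4.73% of all regions at the same rule (edgeR's quasi-likelihood test, Benjamini-Hochberg adjusted p under 0.05 over all 43523 regions). Over all regions 1.79% passed as higher and 2.94% as lower at P0, a split that turned without E14.5 replicate 2 (1692 higher and 1295 lower). The share at the 10 genes was not above that of all regions in every fit: without E14.5 replicate 1 it was 1.79% against 2.53%. In 42 of the 112 (37.5%) the libraries of the stages did not overlap, with P0 above in 38 and below in 4, against 11.8% above, 12.4% below and 24.2% together over all regions. Without a correction, 38 of the 112 had a p under 0.05, against 18.7% of all regions. The median log2 fold change, written below as the log2 difference (P0 minus E14.5), was 0.23 for the 112 and 0.01 for all regions. A change in the number of open alleles per cell and a change in the mix of captured cells cannot be told apart in such bulk libraries.

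**Figure D1:**
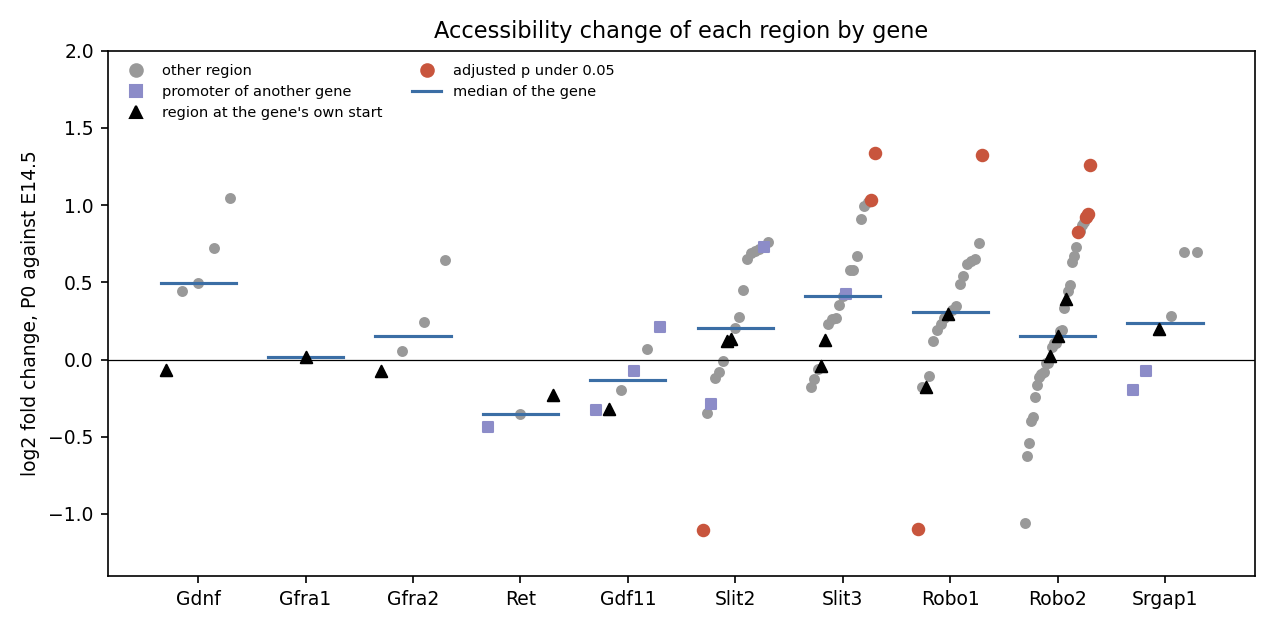
Log2 fold change of accessibility at P0 against E14.5 (vertical axis) for each of the 112 regions, by gene and sorted within it. Triangles mark regions at the gene's own start, squares promoters of other genes, red circles the 9 regions with an adjusted p under 0.05, and blue lines the median of each gene. The red circles lie at Slit2, Slit3, Robo1 and Robo2, and none of the triangles is beyond 0.4 in either direction.

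Counts in regions ran from 6492996 to 12292629 per library, and counts in the 112 regions from 12780 to 28449, with at least 16 in each region and library. The 112 regions took 0.169% to 0.194% of the counts at E14.5 and 0.197% to 0.231% at P0. Pearson correlations of log2 CPM (counts per 1000000, TMM-scaled) across regions were 0.846 to 0.937 within a stage and 0.784 to 0.912 between stages. E14.5 replicate 2 correlated more closely with P0 replicate 3 (0.912) than with E14.5 replicates 1 (0.897) and 3 (0.906). Of 6 progenitor markers, 5 had a region within 10 kb, Meox1 being the exception, with a summed level of 242 to 251 CPM at E14.5 and 209 to 243 at P0. The lists had 1 region lower at P0, at Itga8 itself, and 2 higher, at Pax8 and Cdh5. The list of differentiating nephron genes stood at 237 to 263 CPM at E14.5 and 263 to 334 at P0, with no region at Nphs1. Ureteric genes had 195 to 220 CPM at E14.5 and 181 to 216 at P0 (4 of 6 genes, none at Krt18 and Wnt9b). Stromal genes had 107 to 140 and 118 to 146 CPM (5 of 6, none at Pdgfra). Endothelial genes had 117 to 148 and 129 to 139 CPM (4 of 6, none at Emcn and Pecam1), and immune genes 106 to 129 and 102 to 118 CPM (5 of 6, none at Csf1r). The part of any of these cells in the results at the 10 genes was not tested.

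All 10 genes had an accessible region at a start (holding a RefSeq start or the 5′ end of the span, or listed in the table as a promoter of the gene), 15 regions together. For 8 of the genes RefSeq (assembly GRCm38.p6) gave promoter sequences, 11 in number, and 10 of these starts fell inside a region. The first start of Gdnf did so, and its second start, at base 7813727 of chromosome 15, did not. The promoters of Gdnf, Slit2, Slit3 and Robo2 are shown because these starts were open at both stages while regions far from them changed at the Slit and Robo genes. Each line gives the 250 bases before a start on the strand of the gene, 5′ to 3′, with capitals at the matches to the motifs searched. The Gdnf bases are chr15:7809798-7810047 (plus strand), the Slit2 bases chr5:47982905-47983154 (plus), the Slit3 bases chr11:35121206-35121455 (plus) and the Robo2 bases chr16:75447294-75447543 (minus), in mm10.
Gdnf: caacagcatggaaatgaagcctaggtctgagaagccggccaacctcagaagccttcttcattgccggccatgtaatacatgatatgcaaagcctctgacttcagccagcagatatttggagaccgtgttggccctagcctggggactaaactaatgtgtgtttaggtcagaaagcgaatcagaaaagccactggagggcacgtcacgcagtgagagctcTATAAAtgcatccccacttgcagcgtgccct
Slit2: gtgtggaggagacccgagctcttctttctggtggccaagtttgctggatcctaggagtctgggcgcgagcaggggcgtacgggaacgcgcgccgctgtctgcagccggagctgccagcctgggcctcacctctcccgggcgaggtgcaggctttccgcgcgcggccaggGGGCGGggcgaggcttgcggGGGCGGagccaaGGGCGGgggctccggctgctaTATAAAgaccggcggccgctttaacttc
Slit3: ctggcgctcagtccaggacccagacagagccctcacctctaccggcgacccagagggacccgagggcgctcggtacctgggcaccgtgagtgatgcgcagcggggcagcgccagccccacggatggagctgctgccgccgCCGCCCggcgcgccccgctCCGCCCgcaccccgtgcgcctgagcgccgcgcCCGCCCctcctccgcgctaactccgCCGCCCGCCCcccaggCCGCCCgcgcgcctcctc
Robo2: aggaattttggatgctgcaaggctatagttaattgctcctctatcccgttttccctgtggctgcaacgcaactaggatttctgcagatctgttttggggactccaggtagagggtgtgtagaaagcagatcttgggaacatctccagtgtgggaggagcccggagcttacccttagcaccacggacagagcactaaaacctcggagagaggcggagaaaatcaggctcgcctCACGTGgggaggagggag

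Motifs were searched on both strands from 250 bases before a start to 50 after it: GGGCGG (Sp and Klf factors), CCAAT (NF-Y), TATAAA (the TATA box), CACGTG (an E-box), TGACGTCA (the cyclic AMP response element), TGTTTAC (forkhead), AACAAAG (Sox), TTTATGG (posterior Hox), TCAGGTTTC (of the family of Six2), TGACTCA (AP-1), and the palindrome bound by Nrf1. The Slit3 promoter held 6 matches to GGGCGG, some overlapping, and that of Slit2 held 3. Gdf11 had 9 and Srgap1 had 3, and 35.7% of all 32851 promoters held at least 1. The first Gdnf promoter had TATAAA 31 bases before the start and Slit2 had it 28 bases before, while Gdf11 had it 185 bases before, a motif in 13.6% of promoters. CCAAT was found 220 and 70 bases before the Gdf11 start, 73 before that of Gfra1 and 120 before the second Gdnf start (37.4% of promoters). CACGTG stood 18 bases before the first Robo2 start (7.15% of promoters), and no motif of the list was found in the windows of Robo1 or the other Robo2 starts. In the same windows CpG dinucleotides numbered 41 in Slit3, 37 in Srgap1, 36 in Gdf11 and 30 in Slit2, with a median of 7 over all promoters. Gdnf had 11 at its first start and 22 at its second, Gfra1 had 12, Robo1 had 15, and the 3 Robo2 starts had 9, 5 and 17. These matches describe the letters alone.

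None of the 15 regions at gene starts passed the test, and in none did the libraries of the stages separate. Of all regions listed as promoters in the table, 0.851% passed and in 16.7% the stages separated. With only 15 regions, finding none cannot be told from these shares. The log2 fold changes of the 15 ran from -0.32 at Gdf11 to 0.39 at Robo2, with a median of 0.02. At the Gdnf start (7809231 to 7811594, listed as promoter and exon) the libraries had 24.0, 23.1 and 21.95 CPM at E14.5 and 20.8, 22.7 and 22.3 at P0. The values of the stages overlapped and their means, 23.0 ± 1.01 and 21.95 ± 0.996 CPM (SD, n = 3 each), differed by about the spread between litters (log2 difference -0.07, standard error 0.18, edgeR adjusted p = 0.887). Gfra1, the co-receptor that presents Gdnf to Ret, was represented by its start alone (58454327 to 58456995 on chromosome 19), with 24.2, 25.05 and 23.1 CPM at E14.5 and 24.7, 23.8 and 24.7 at P0. The libraries of both stages lay within one narrow range (log2 difference 0.02, standard error 0.18).

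Scaled to length, the 2 starts of Robo1, the first of Slit2 and the 3 of Robo2 were the most accessible of the 15. The Robo1 region at the 5′ end of its RefSeq span (72027456 to 72030173 on chromosome 16) had 26.1 CPM per kb, higher than 92.8% of all regions, although the table lists it as intergenic. The second Robo1 start (72662817 to 72665111) had 24.7 CPM per kb, Slit2 (47982728 to 47986665 on chromosome 5) had 23.5, and the Robo2 start nearest its 3′ end (74410409 to 74413328) had 21.99. The other Robo2 starts had 19.8 (75446214 to 75448146) and 15.9 CPM per kb (75091519 to 75093594). The first Slit3 start (35120675 to 35122633 on chromosome 11) followed with 12.6 CPM per kb and the second Slit2 start (48240684 to 48241175) with 12.26 CPM per kb. Gdnf, Gfra1, Srgap1 and Ret lay close together at 9.51, 9.09, 9.11 and 8.92 CPM per kb, near the middle of all regions. The Robo2 start nearest the 3′ end had 58.8, 50.8 and 57.3 CPM at E14.5 and 70.7, 56.0 and 91.6 at P0. Its P0 libraries were widely spread, and the second of them lay within the E14.5 range (log2 difference 0.39, standard error 0.22, adjusted p = 0.359).

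**Figure D2:**
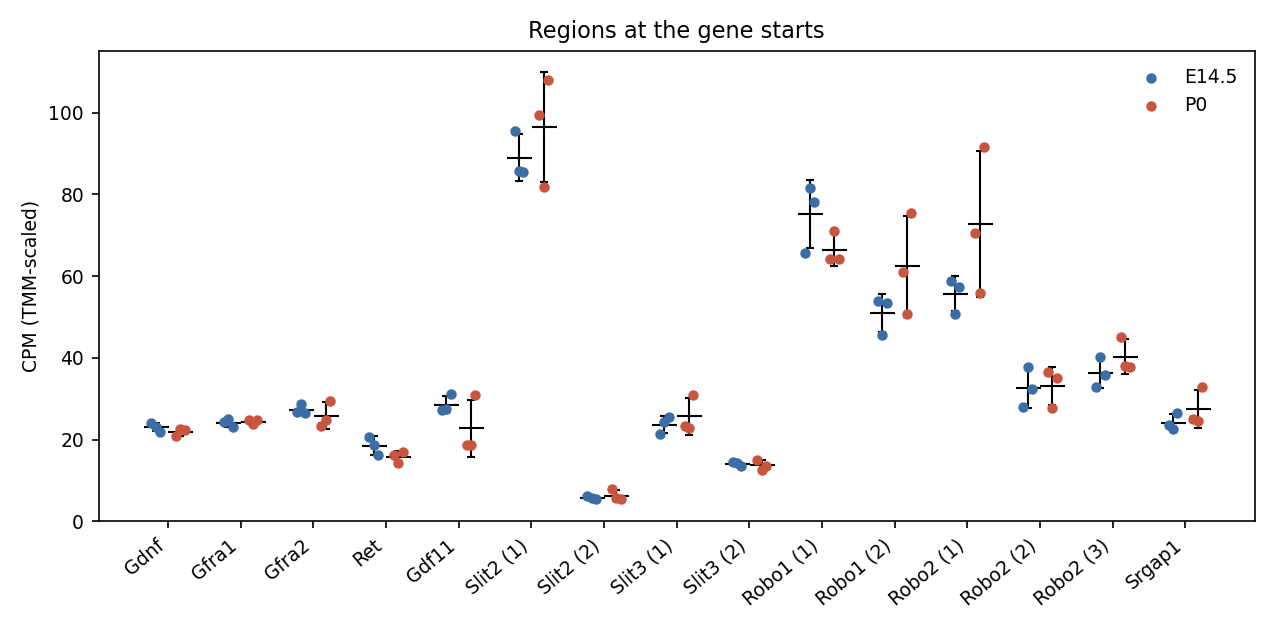
CPM of each library (vertical axis, TMM-scaled) in the 15 regions at the starts of the 10 genes, with the mean and SD of the 3 libraries of each stage in black; numbers in brackets order the starts of a gene by chromosome position. The points of E14.5 (blue) and P0 (red) overlap at every start.

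Away from its start, Gdnf had 4 regions with positive log2 fold changes, from 0.44 to 1.04, none past the test. A region just beyond its 3′ end (7837970 to 7839774 on chromosome 15, intergenic) had 13.4, 13.9 and 10.4 CPM at E14.5 and 25.3, 13.6 and 23.0 at P0. P0 replicates 1 and 3 were higher than all of E14.5 and P0 replicate 2 was within its range (log2 difference 0.72, standard error 0.25, edgeR adjusted p = 0.114). Inside the neighbouring gene Wdr70, the region from 7877551 to 7878149 had 5.34, 5.87 and 1.87 CPM at E14.5 and 13.5, 6.05 and 7.50 at P0. Here the stages did not overlap, by a small margin, and the adjusted p was 0.169 (log2 difference 1.04, standard error 0.40). The remaining regions, from 7801055 to 7802878 and from 7879967 to 7881026, had log2 fold changes of 0.44 (standard error 0.32) and 0.50 (standard error 0.27).

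Ret, whose product is the receptor for Gdnf and whose RNA is a mark of ureteric tips, had 3 regions, each lower on average at P0 without passing the test. Its start (118196651 to 118198569 on chromosome 6) had 20.6, 18.7 and 16.1 CPM at E14.5 and 16.1, 14.22 and 16.9 at P0. These values overlap, with a log2 difference between stages of -0.23 (standard error 0.20, adjusted p = 0.5996). An exonic region within Ret (118179265 to 118180673) had a log2 difference between stages of -0.35 (standard error 0.28). The promoter of Csgalnact2 (118138460 to 118139571), a neighbour, had the most counts, with 41.3, 32.5 and 29.7 CPM at E14.5 and 21.3, 17.7 and 36.5 at P0 (log2 difference -0.44, standard error 0.25, adjusted p = 0.381). Without P0 replicate 3 its adjusted p was 0.0423.

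Gfra2, the preferred co-receptor of neurturin, had 4 regions on chromosome 14. The region within the gene from 70918871 to 70921341 had 12.6, 11.4 and 9.81 CPM at E14.5 and 17.4, 20.1 and 15.6 at P0. Its P0 libraries all lay above those of E14.5, with a log2 difference between stages of 0.65 (standard error 0.22) that did not pass (edgeR adjusted p = 0.107). The other regions of Gfra2 had log2 fold changes from -0.08 to 0.24. Gdf11 lies among closely spaced genes on chromosome 10, and 3 of its 6 regions were promoters of neighbours: Cd63, Bloc1s1 and Itga7. The one with the most counts, at Bloc1s1 (128922736 to 128923966), had a log2 difference between stages of 0.21 (standard error 0.20). The start of Gdf11 (128890426 to 128892744) had 27.2, 27.5 and 31.1 CPM at E14.5 and 18.7, 18.6 and 30.9 at P0. The first and second P0 libraries were below E14.5 and P0 replicate 3 was not (log2 difference -0.32, standard error 0.22, adjusted p = 0.483).

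Among the ligands of Robo, Slit3 had the clearest gain. The region from 35592552 to 35594231 on chromosome 11, inside the gene and outside its listed exons, had 10.6, 15.0 and 11.4 CPM at E14.5 and 32.3, 28.9 and 32.5 at P0. All P0 libraries were far above all E14.5 libraries. The means were 12.33 ± 2.34 and 31.2 ± 2.02 CPM (SD, n = 3 each), a log2 difference between stages of 1.34 (standard error 0.20, edgeR adjusted p = 0.00289). It lay 472 kb beyond the RefSeq start and 49.0 kb beyond a promoter of Slit3 listed in the table (35543500 to 35545249, with a log2 difference of -0.04, standard error 0.21). A second Slit3 region (35261712 to 35263068) rose from 8.90, 12.8 and 7.47 CPM at E14.5 to 20.1, 20.0 and 20.1 at P0. The P0 values there were nearly equal and the E14.5 values more spread (log2 difference 1.04, standard error 0.23, adjusted p = 0.0201). Of the 19 Slit3 regions, 15 had a positive log2 fold change, and in 9 every P0 library was above every E14.5 library. A positive log2 fold change was found in 51.1% of all regions and in 59.3% of those listed as no promoter. Every P0 library was above in 11.8% of all regions and in 4494 of the 29426 listed as no promoter.

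The next Slit3 regions by p missed the threshold: 35304723 to 35305751 had a log2 difference between stages of 0.91 (standard error 0.26, adjusted p = 0.0566) and 35676185 to 35677730 one of 0.99 (standard error 0.28, adjusted p = 0.0564). With the DESeq2 Wald test they had adjusted p-values of 0.0352 and 0.0245, and without E14.5 replicate 2 of 0.0231 and 0.0104, and the second also passed without P0 replicate 2 (0.0350). The stages were apart in the first and overlapped in the second. The region with the most Slit3 counts (35282300 to 35284639) had 21.6, 26.7 and 23.9 CPM at E14.5 and 38.5, 22.1 and 31.3 at P0, which overlap.

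Slit2 and Slit3 each contain a gene of the microRNA miR-218, and both hairpins yield the same mature 5′ strand, shown here because the strongest gain was the region closest to the Slit3 copy. The seed (bases 2 to 8) is in capitals, and the 3′ strands differ in sequence and in seed. RefSeq places the Slit2 hairpin at chr5:48223942-48224051 and the Slit3 hairpin at chr11:35616816-35616925, both on the plus strand.
miR-218-5p: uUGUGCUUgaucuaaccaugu
miR-218-1-3p: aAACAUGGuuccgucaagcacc
miR-218-2-3p: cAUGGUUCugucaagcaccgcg

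The middle of the Slit3 region that rose most was 23.5 kb from the hairpin. At Slit2 the closest region (48240684 to 48241175, listed as a Slit2 promoter) was 16.9 kb from its hairpin and had a log2 difference between stages of 0.13 (standard error 0.29, adjusted p = 0.861). MicroRNA levels were not analysed here.

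Slit2, also a gene of ureteric cells, had 1 change among its 17 regions, a loss beyond its 3′ end. The intergenic region from 48337863 to 48338555 on chromosome 5 had 7.12, 7.97 and 10.4 CPM at E14.5 and 3.96, 4.09 and 3.79 at P0. Every P0 library was below every E14.5 library (log2 difference -1.11, standard error 0.29, adjusted p = 0.0439). This was the weakest of the 9 calls, and it did not pass with limma-voom (adjusted p = 0.0537), with total-count scaling (0.0578) or without E14.5 replicate 1 or 3 or any of the P0 replicates (0.0684 to 0.2499). The other 16 regions of Slit2 ran from -0.35 to 0.76 in log2 fold change. In 6 of the 17 every P0 library was above E14.5, against 11.8% of all regions.

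Robo1 had a gain and a loss. The gained region (72717189 to 72718229 on chromosome 16), within the gene and 54.6 kb beyond its second start, had 6.41, 5.96 and 6.42 CPM at E14.5 and 15.9, 15.1 and 16.02 at P0. Within each stage the libraries were nearly equal, and the stages were far apart (log2 difference 1.33, standard error 0.23, adjusted p = 0.00462). The lost region (72930076 to 72931593), 268 kb beyond that start, had 15.1, 12.7 and 17.6 CPM at E14.5 and 4.37, 8.02 and 8.76 at P0. All P0 libraries were lower there (log2 difference -1.10, standard error 0.28, adjusted p = 0.0355). Of the 18 Robo1 regions, 14 had a positive log2 fold change, against 51.1% of all regions and 59.3% of those listed as no promoter.

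Robo2, the receptor that restricts the Gdnf domain together with Slit2, had 33 regions and 4 gains, each within its RefSeq span. The shortest (74348478 to 74348946) had 4.63, 4.90 and 3.39 CPM at E14.5 and 10.9, 9.08 and 11.1 at P0, a log2 difference between stages of 1.26 (standard error 0.28, adjusted p = 0.0189). It lay 63.1 kb beyond the start nearest the 3′ end. The region from 74814253 to 74814994 had 9.85, 10.5 and 11.0 CPM at E14.5 and 20.6, 15.3 and 23.3 at P0 (log2 difference 0.92, standard error 0.22, adjusted p = 0.0261). P0 replicate 2 was the lowest of its stage there and still above E14.5.

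Both other gains of Robo2 lay upstream of the start nearest the 3′ end, at distances of 53.0 and 103 kb. From 74464371 to 74465359 the libraries had 9.49, 9.72 and 6.07 CPM at E14.5 and 16.8, 14.53 and 17.3 at P0 (log2 difference 0.94, standard error 0.24, adjusted p = 0.0376). From 74514023 to 74515381 they had 15.3, 20.8 and 13.4 CPM at E14.5 and 31.0, 25.6 and 31.6 at P0 (log2 difference 0.83, standard error 0.21, adjusted p = 0.0362). The stages were apart in both. The table lists these and the 74814253 region as intergenic, although all lie within the RefSeq span of Robo2.

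Losses at Robo2 stayed short of the threshold. The region from 73886687 to 73887782, beyond the 3′ end, had 9.13, 9.46 and 6.66 CPM at E14.5 and 2.29, 6.20 and 3.87 at P0. The stages did not overlap (log2 difference -1.06, standard error 0.35, adjusted p = 0.107), and without P0 replicate 2 the adjusted p was 0.0407. Inside the gene, 75324638 to 75325979 had a log2 difference between stages of -0.62 (standard error 0.26, adjusted p = 0.198) and 73964102 to 73966188 one of -0.40 (standard error 0.23, adjusted p = 0.372). A pair of the 33 regions, beginning at 74504448 and 74504500, shared nearly all bases and were counted apart as in the table.

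**Figure D3:**
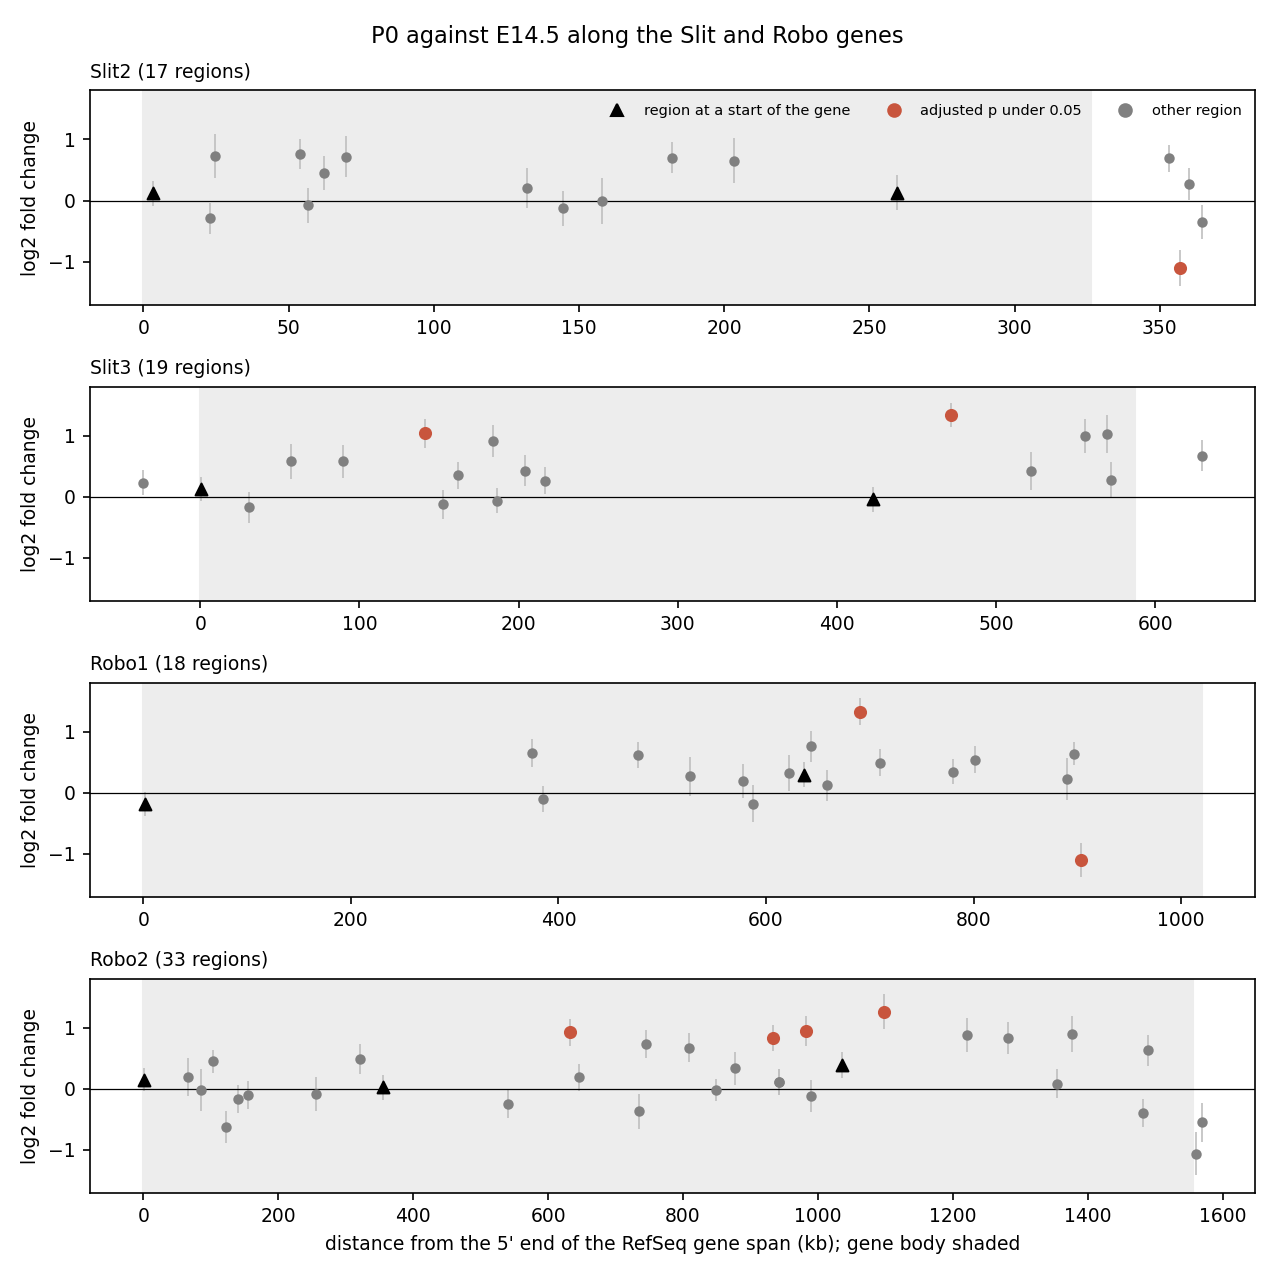
Log2 fold change of P0 against E14.5 with its standard error (vertical axes) along Slit2, Slit3, Robo1 and Robo2, by distance in kb from the 5′ end of the RefSeq gene span (horizontal axes, gene body shaded). Red circles are the 9 regions past the test and triangles the regions at gene starts, which stay close to 0.

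**Figure D4:**
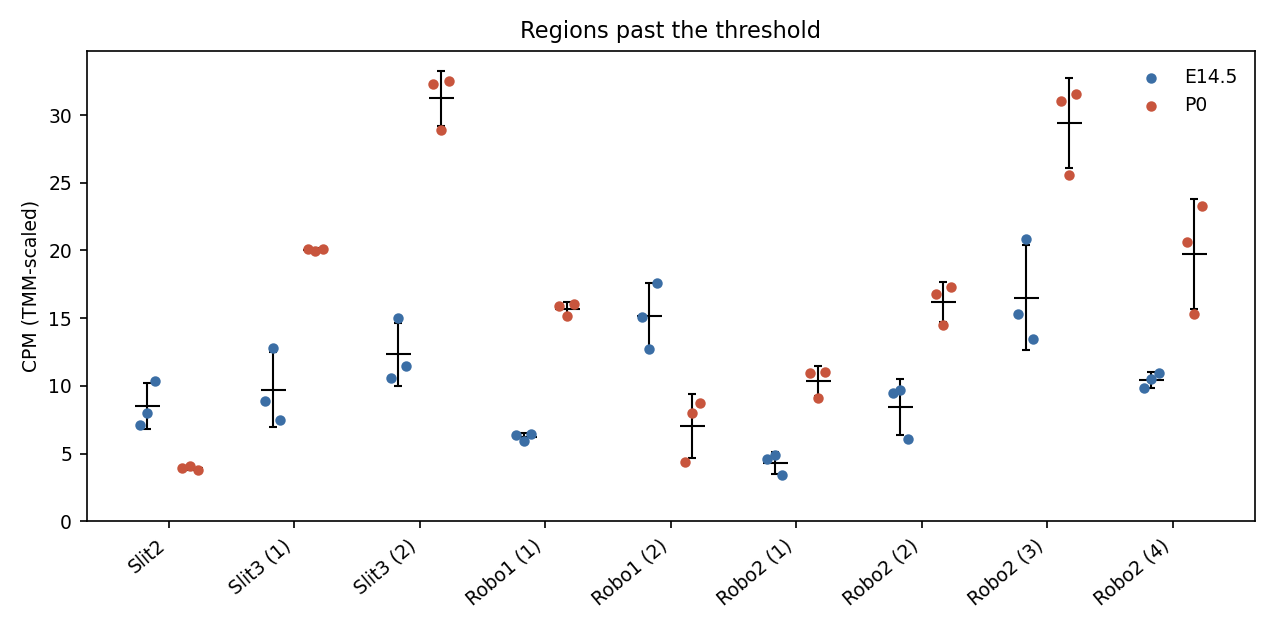
CPM of each library (vertical axis, TMM-scaled) in the 9 regions past the test, with the mean and SD of each stage in black; numbers in brackets order the regions of a gene by chromosome position. In 7 regions all P0 points (red) lie above all E14.5 points (blue), and in the Slit2 region and the second Robo1 region they lie below.

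Srgap1 had 6 regions on chromosome 10. Within the gene, the region from 121903611 to 121905188 had 12.5, 12.2 and 10.4 CPM at E14.5 and 19.1, 17.7 and 20.0 at P0. The stages were apart, and the adjusted p was 0.0651 (log2 difference 0.70, standard error 0.20). Its start (122045597 to 122048432) had a log2 difference between stages of 0.20 (standard error 0.19), and the region with the most counts (122096563 to 122097960), the promoter of the neighbour Tmem5, one of -0.19 (standard error 0.24).

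By the annotation of the table, none of the 9 changed regions was a promoter or an exon in the table, 5 lay in a listed gene and 4 were listed as intergenic. Their middles were 49.0 to 278 kb from the middle of the nearest of the 15 regions at gene starts, and their lengths 469 to 1680 bp. Of the 88 member regions that were no start and no promoter, 9 passed (10.2%), against 6.59% of all regions listed as no promoter, and their median log2 fold change was 0.33 against 0.10. Only 2 of the 9 carried a motif name in the table (Pax6 in the gained Robo1 region and Meis1 in the Robo2 region from 74514023), while 52.7% of the 112 and 62.3% of all regions carried at least 1. FANTOM enhancers overlapped 3.57% of the 112 and 9.65% of all regions. In every library each of the 9 had at least 27 counts.

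Leaving out single libraries changed most of these calls. Without E14.5 replicate 1, E14.5 replicate 3 or P0 replicate 1, 2 of the 112 regions passed, the Slit3 region from 35592552 and the gained Robo1 region. These 2 were 1.79% of the 112, against 2.53%, 0.779% and 1.09% of all regions in the same fits. They passed in all 14 alternative fits, with adjusted p-values up to 0.0349 and 0.0373. The other filters and prior count left their p-values as in the main fit, so those fits add no support. Without E14.5 replicate 2, 15 of the 112 passed (13.4%, against 6.86% of all regions), 13 of them higher at P0. Without P0 replicate 2, 11 passed (9.82% against 3.80%), and without P0 replicate 3, 6 passed (5.36% against 5.16%). Of 200 regions given a 2-fold change in simulated counts of 43523 regions, 39% were found (78), beside 9 false calls. With so few changed regions the adjusted threshold was stricter than in the real fit, where 2059 regions passed. The 39% is thus no measure of the share that the real fit finds.

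Summed over all regions of a gene, accessibility did not pass the test at any of the 10 genes (edgeR, adjusted over 19322 protein-coding genes, of which 0.0414% passed), nor with DESeq2 or limma-voom. Without correction 3 of the 10 had a p under 0.05 in edgeR, against 11.3% of genes, and 2 in DESeq2 and 3 in limma-voom. Gdnf had 59.3, 59.4 and 48.1 CPM at E14.5 and 77.9, 68.7 and 73.8 at P0, a log2 difference between stages of 0.40 (standard error 0.14, edgeR adjusted p = 0.355). All P0 sums of Gdnf were higher. Slit3 had 201, 248 and 228 CPM at E14.5 and 307, 287 and 317 at P0 (log2 difference 0.43, standard error 0.16, adjusted p = 0.368), also without overlap. Ret had 71.4, 62.7 and 56.9 CPM at E14.5 and 43.4, 43.6 and 61.3 at P0, which overlap (log2 difference -0.36, standard error 0.16, adjusted p = 0.434).

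Robo1 and Robo2 sums also separated the stages, so that 4 of the 10 genes did, against 17.2% of all genes. Robo1 had means of 330 ± 25.01 CPM at E14.5 and 384 ± 16.5 at P0, and Robo2 467 ± 3.05 and 547 ± 42.6 CPM (SD, n = 3 each). For each of the 4 the two-sided exact permutation p was 0.1, the smallest that 3 libraries against 3 allow. The sum of Slit2 had a log2 difference between stages of 0.23 (standard error 0.16), Gfra2 0.16 (standard error 0.14), Srgap1 0.07 (standard error 0.16), Gfra1 0.02 (standard error 0.17) and Gdf11 -0.10 (standard error 0.16). The median over all genes was -0.10. With TMM scaling computed from the sums themselves that median was -0.01 and 5 of the 10 genes had an uncorrected p under 0.05. None passed the adjusted threshold. The share of all genes with such a p under that scaling is not given here, so the 5 cannot be set against it.

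**Figure D5:**
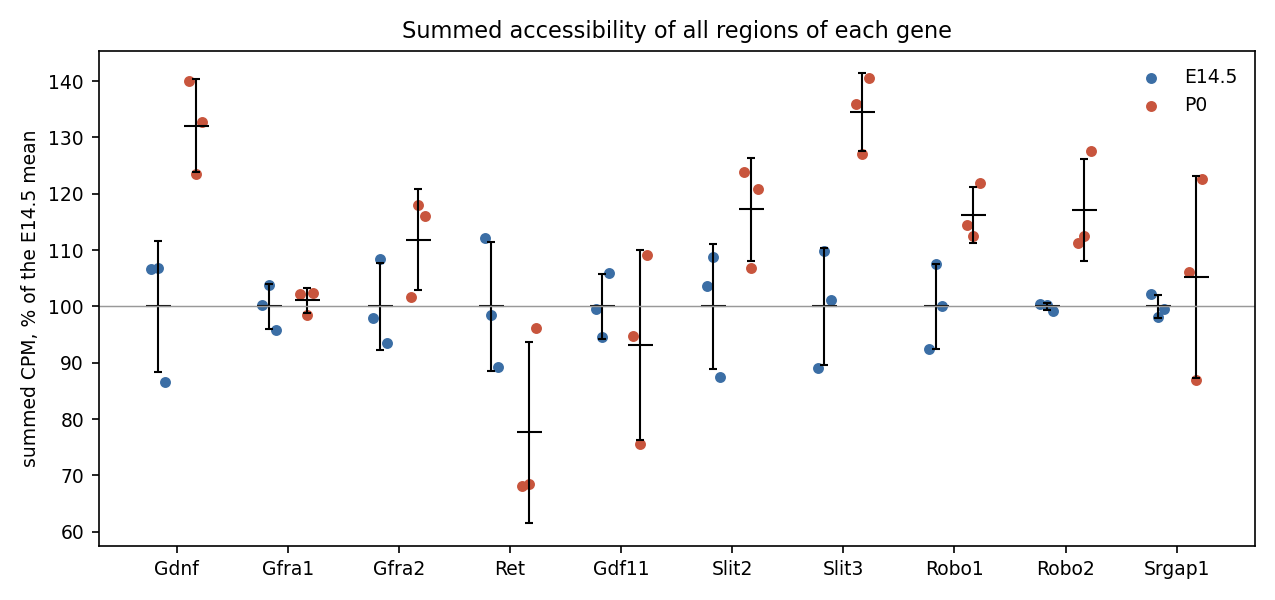
Summed CPM of all regions of each gene in each library, as a percentage of the gene's E14.5 mean (vertical axis, which does not start at 0), with mean and SD of each stage in black. P0 points (red) lie above all E14.5 points (blue) at Gdnf, Slit3, Robo1 and Robo2, and the 2 lowest P0 points of Ret lie below its E14.5 points.

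The genes whose summed accessibility followed that of Gdnf most closely over the 6 libraries were Rspo2 (Pearson r = 0.993), Dmrt3 (0.988) and Capn6 (0.987), among 19320 genes that share no region with it. Of these, 159 had an r above 0.9.

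Among further genes of the Gdnf and Ret pathway, 21 of 22 had regions, and 1 of the 85 passed. It lay near Cxcr4, a chemokine receptor (128632021 to 128634594 on chromosome 1), and went down, with means of 21.9 ± 1.89 CPM at E14.5 and 8.48 ± 1.94 at P0 (n = 3 each, ± SD; log2 difference -1.37, standard error 0.23, edgeR adjusted p = 0.00413). Of 18 further Slit and Robo pathway genes 17 had regions, and 5 of the 81 passed, 3 higher and 2 lower at P0, with adjusted p-values from 0.00987 to 0.0345. The gains were at Nck2, an adaptor protein (a promoter from 43532229 to 43532733 on chromosome 1, log2 difference 1.43, standard error 0.32, and a region in the gene from 43554893 to 43556204, 0.92, standard error 0.23), and at Sos1, an exchange factor for Ras and Rac (80468110 to 80469015 on chromosome 17, 1.04, standard error 0.26). The losses were at Nck1, where the region from 100487789 to 100488647 on chromosome 9 is the promoter of Il20rb (-1.62, standard error 0.32), and at a region within 50 kb of both Robo3 and Robo4 (37370817 to 37372244 on chromosome 9, -1.26, standard error 0.26). Of 9 regulators of Gdnf 8 had regions, 22 in all, and 2 passed, both lower at P0 and both at Eya1, a transcriptional coactivator needed for Gdnf expression. The first, in the gene (14217690 to 14219288 on chromosome 1), fell from 17.2 ± 2.45 to 6.35 ± 0.446 CPM (log2 difference -1.43, standard error 0.23). The second (14356027 to 14358133, intergenic) fell from 24.8 ± 5.28 to 13.5 ± 1.59 CPM (log2 difference -0.88, standard error 0.21, adjusted p = 0.0287). Together the lists had 8 of 188 regions past the test (4.26%), a share near the 4.73% of all regions, and a median log2 fold change of -0.05.

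At both Robo genes regions just beyond the 50 kb limit also changed. The farthest region inside it was 49.4 kb from Srgap1 (the Tmem5 promoter above) and the nearest outside was 52.0 kb from Gdnf (7888686 to 7890548, log2 fold change 0.76, adjusted p = 0.0986). Regions 53.2 kb from Robo1 (73100074 to 73101405) and 56.8 kb from Robo2 (75503871 to 75504623) had log2 fold changes of 1.11 and 1.30 with adjusted p-values of 0.0228 and 0.0112, and are not counted among the members.

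The authors' deposited table classes 15 of the 112 regions as opening, 1 as closing and 96 as stable. Over all regions it has 1243 opening and 1081 closing (5.34% together), where the fit here had fewer higher (778) than lower (1281). These classes reach adjusted p-values of 0.0999, above the 0.05 used here. In the authors' deposited table the 7 gains above are opening, 4 of them with an adjusted p under 0.05 and the others up to 0.0703, and the losses at Slit2 and Robo1 are stable, with adjusted p-values of 0.153 and 0.121. The single closing region of the authors' deposited table is the Robo2 region from 73886687.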

How the data were processed

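Chromatin accessibility was measured by ATAC-seq in 6 libraries. Whole-number counts per region were deposited by the authors in 1 table for a common region set, and the build is mm10, per the submitters' processing notes. Aligner, peak caller, counting rule, Tn5 shift and handling of duplicate reads are not given in the sources used here. The authors' deposited table also holds their log2 fold changes, p-values and scores (a t statistic and log odds), from a model not given in the sources used here; these were used only where named. Columns were matched to samples by title, with 0 unmatched.

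Of 45489 rows, 1966 repeated a region and were dropped. All distinct regions were fitted with edgeR 4.0.16 (R 4.3.3): TMM scaling, filterByExpr (0 regions removed), quasi-likelihood F test, stage as the only term, Benjamini-Hochberg threshold 0.05. Standard errors are the log2 fold change over the root of F. CPM use TMM-scaled library sizes, and log2 CPM a prior count of 1. Gene sums add the counts of all regions by the same 50 kb rule for each RefSeq protein-coding gene and use the library sizes and scaling of the region table. That scaling was chosen after the data were seen. Genes with neighbours share regions. The fit was tested on simulated counts.

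Regions named are those past the threshold, those at gene starts, the one with the most counts per gene and the 3 next by p in each direction; list genes are named where a region passed, and the 3 genes most correlated with the Gdnf sum. Members and lists were chosen with earlier results of these data known. Outside this rule, the distal regions of Gdnf, the Gfra2 region from 70918871, the exonic Ret region, the regions on either side of the 50 kb limit and the pair of overlapping regions were chosen after their values were seen. Alternatives covered DESeq2 1.42.0, limma-voom 3.58.1, scaling, filters, prior count, windows, thresholds, a replicate block and each library left out. Shares of counts cover counting error only. P-values measure the spread between litters, and each library is 1 litter. Python 3.11.15, pandas 2.3.3, numpy 2.4.6, scipy 1.17.1 and matplotlib 3.10.9 were used. A marker gene of the differentiating nephron list is not reported here.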

Additional observations from a re-analysis of the deposited data

How the results depend on the processing

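The 9 changed regions at the 10 genes became 2 at a threshold of 0.01 and 20 at 0.1, and ran from 2 to 15 with single libraries left out. The 8 at the pathway lists became 3 at 0.01 and 5 with 10 kb windows, and ran from 2 to 9. The 2059 over all regions became 539 and 3490 at these thresholds and ran from 339 without E14.5 replicate 3 (474 without P0 replicate 1, 1099 without E14.5 replicate 1) to 2987 without E14.5 replicate 2, with 56 to 1692 of them higher at P0. Other scalings, tests, filters and windows gave 8 to 11 regions at the 10 genes and kept the direction of each of the 9. No gene sum passed in any fit, and 4 to 6 genes had sums that separated the stages, against 17.2% of all genes in the main fit. A litter is of 1 stage, so replicate numbers pair nothing: deviations of same-numbered libraries correlated at 0.07, -0.14 and 0.08, and E14.5 replicate 1 correlated best with P0 replicate 2 (0.19). With the replicate block 6 of the 9 regions passed at the 10 genes, 6 at the lists and 1834 over all regions. The 3 lost were the Slit2 loss and the Robo2 gains from 74464371 and 74514023. In simulated counts with 200 of 43523 regions changed 2-fold, 39% of these were found, beside 9 false calls. The adjusted threshold there was stricter than in the real fit, so this is not the share that the real fit finds.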

Other observations

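Just short of the threshold, at an adjusted p from 0.05 to 0.1 in edgeR, lay 11 further regions of the 10 genes, and all 11 were higher at P0. Slit3 and Robo2 had 3 each, Slit2 and Srgap1 had 2 each and Robo1 had 1, with log2 fold changes from 0.64 to 1.02. In 10 of the 11 every P0 library was above every E14.5 library. Choosing regions by p from the same libraries makes such a separation likely, so it adds no support. Over all regions 1431 fell in that range, 57.4% of them higher at P0. Both Srgap1 regions lay within the gene, with log2 fold changes of 0.70 each.

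Another microRNA gene, Mir691, lies within the RefSeq span of Robo2 (74341990 to 74342067 on chromosome 16, minus strand). Its hairpin was 6.68 kb from the middle of the shortest Robo2 gain, whose log2 fold change was 1.26.

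The columns of the deposited table that link regions to genes through enhancer predictions could not be used for these genes. Of 61 links to the 10 genes, 0 lay on the chromosome of the gene, and over all links 998 of 183177 (0.545%) did. The motif and FANTOM columns did not show this: no motif position fell beyond its region in 27122 regions, and 0 FANTOM enhancers were listed on another chromosome.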
